A study of Vitis vinifera with 40 samples.

Results

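The genes described here are 150 of the 29971 genes of a grapevine (*Vitis vinifera*) count table, chosen because their mean expression was highest at one of the torpedo stages of somatic embryogenesis, T1 or T2. Raw counts were divided by DESeq2 median-of-ratios size factors over 40 libraries, which gives the normalised counts used below. A gene was kept when its highest stage mean fell in T1 or T2 and was at least 100, which held for 2089 genes. These genes were ranked by the mean of the peak stage over the highest mean among the 10 other stages, after adding 1 to each mean, and the first 150 were taken. The peak lay in T1 for 102 members and in T2 for 48 members. Because the stage means themselves chose the members, the height of the peak over the other stages is given as a description, without a test.

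The libraries come from somatic embryo cultures of the cultivar Malvasia Istriana, induced on immature anthers with their filaments, and from the plants that grew from them. The 12 stages run from early induction (EI), preglobular (PG), globular 1 and 2 (G1, G2), heart (H), torpedo 1 and 2 (T1, T2) and cotyledonary 1 and 2 (C1, C2) to the seedling (S), the seedling with epicotyl (EP) and the juvenile plant (JP), where C2 and EP have 5 libraries, while the remaining stages have 3. EI to G2 grew with auxin in the dark, on a medium that by the study's methods also held the cytokinin BAP. H to C1 grew without hormones in the dark and C2 without hormones under long days. S to JP had gibberellin under long days, and the germination medium in the methods held the auxin IAA beside it. T1 and T2 therefore shared their medium and light regime with H and C1, whereas stage and culture condition cannot be told apart between G2 and H, between C1 and C2, or between C2 and S. Embryos from H to C2 were picked by shape and size. PG, G1 and G2 embryos were sieved from the embryogenic tissue. PG was told from the globular stages by its uneven surface and attachment to the explant, and G1 from G2 by size. EI samples were cells and small cell clusters collected on a mesh, and S to JP were told apart by root hairs, epicotyl and first leaves. Each embryo sample pooled many embryos, so that it is a mean over embryos of a single outward form. In such bulk samples, fewer cells of a type and less RNA per cell cannot be told apart.

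At the torpedo stage, a dicot embryo that has left the heart form elongates along its root to shoot axis, the cotyledons grow out, and the vascular tissue and the root and shoot meristems take shape. In seeds, this is also the time at which the embryo passes from patterning to maturation, when reserves begin to be stored. Somatic embryos, which arise from somatic cells rather than from a fertilised egg, pass through the same outward forms. Gene identifiers of the table were paired with gene names for 0 of the members in the sources used here, so that members are given by identifier, and the tissue could not be checked against named marker genes.

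Total counts per library ranged from 13774534 to 68058022, and in the 6 torpedo libraries from 22120161 to 28421295. Over the 19038 genes that reached a mean of 100 in some stage, the 3 T1 libraries resembled each other closely, with correlations across genes of 0.960 to 0.978 on the log2(normalised count + 1) scale. The T2 libraries resembled each other less, with correlations of 0.856 to 0.937, and T2 replicates 1 and 3 were each most alike to C1 replicate 1. Correlations among the C1 libraries were 0.765 to 0.912, with C1 replicate 2 lowest against replicate 1. Genes are not independent replicates, so these correlations only describe the libraries. T2 and C1 means therefore average over unlike libraries, and the single libraries are given beside most of them. Libraries of EP, G1 and C2 differed as well, with lowest correlations within the stage of 0.823, 0.898 and 0.914. Levels in EP and G1 are mostly given as stage means below, which average over these differences. Members took 1.31% to 1.58% of all counts in the T1 libraries, 0.673% to 0.980% in T2, 0.277% to 0.899% in C1, and 0.0631% to 0.189% in EP, where replicates 4 and 5, the deepest libraries of the series, had 0.156% and 0.189%. A share of counts also depends on the other transcripts of a library. Size factors in EP ran from 0.212 in replicate 3 to 3.48 in replicate 5, so these shares are not a measure of member levels between stages.

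The 102 genes with a T1 peak had a narrow maximum. Expressed as a percentage of each member's own peak mean, their median level was 9.60% in EI and 3.98% in PG and stood at 22.7% (G1), 28.1% (G2) and 31.5% (H) before T1. After T1 it was 19.97% in T2, with 34.6% (C1) and 41.9% (C2) after that, and 13.8% at the seedling stage, 7.69% with the epicotyl and 8.94% in the juvenile plant. The median level was thus highest in T1 and lower in T2 than in H, C1 and C2. By library it was 101.3%, 105% and 94.9% in the 3 T1 replicates, against 22.2%, 7.35% and 26.6% in T2 and 33.5%, 10.3% and 47.7% in C1. In C2 it was 38.6%, 40.4%, 34.7%, 48.0% and 36.8%, so that C1 replicate 3 stood above 4 of the 5 C2 libraries and C1 replicate 2 below all of them. In 59 of the 102 members the T2 mean lay below both the H and the C2 mean, and in 47 without T2 replicate 2, the library in which these genes were lowest. In 48 of the 102, the C2 mean stood above those of H, T2, C1 and S.

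The 48 genes with a T2 peak followed another course. Their median level was already 22.6% of the peak in EI and 27.6% in PG, reached 39.6% in T1, and later stood at 34.7% (C1), 44.9% (C2), 35.6% (S) and 12.9% (EP). Their T2 libraries were far apart, with median levels of 38.9%, 140% and 98.7% in replicates 1, 2 and 3. In C1 the same genes had a median level of 74.9% in replicate 1, 3.56% in replicate 2 and 22.4% in replicate 3. C1 replicate 1 was the highest of the 34 libraries outside T1 and T2 for 24 of the 48 members, and C1 replicate 2 was the lowest C1 library for 46 of them and for 89 of the 102 members with a T1 peak.

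**Figure D1:**
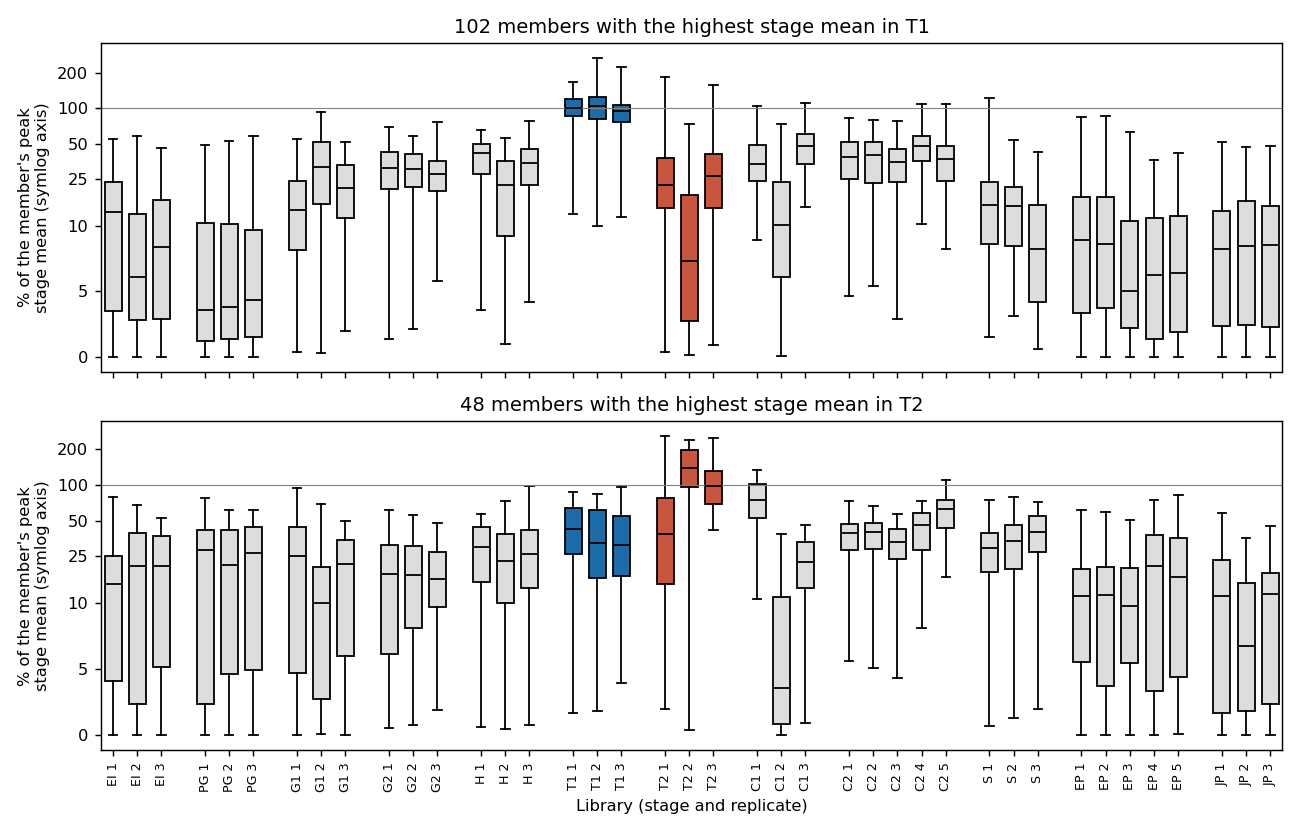
Level of the members in each of the 40 libraries, as a percentage of each member's own peak stage mean on an axis that is linear below 10% and logarithmic above, for the 102 members with a T1 peak (upper panel) and the 48 with a T2 peak (lower panel). Boxes span the quartiles with the median as a line, whiskers reach the lowest and highest member, T1 libraries are blue and T2 libraries red. The 3 T1 libraries lie together near 100% in the upper panel, whereas in the lower panel T2 replicate 1 lies at a median of 38.9% and C1 replicate 2 at 3.56%.

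Next to T1 and T2, the stage with the highest mean was C2 for 61 members, C1 for 27, H for 21, G2 for 15, S for 10, PG for 7, G1 for 6, EP for 2 and JP for 1. Peaks were moderate in height. The ratio of the peak to the next stage had a median of 1.99 and quartiles of 1.81 and 2.24, was at least 2 in 73 members and at least 3 in 14, and ranged from 1.72 to 5.05. The mean at the peak had a median of 730 normalised counts, was at least 1000 in 59 members and ranged from 107 to 50749.

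Among the 10 members with the highest ratio, 8 peaked in T1. VIT_01s0026g01250 had 242, 284 and 232 normalised counts in the T1 libraries, against a lowest value of 3.75, a median of 26.2 and a highest value of 100.2 over the 34 libraries outside T1 and T2. All 3 T1 libraries stood above all of these, and also above T2, with 41.7, 9.56 and 38.3. The T1 mean of 252 ± 27.6 (SD, n = 3) was 5.00 times the next highest stage mean, which was that of JP.

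VIT_18s0001g03380 had 193, 336 and 265 in T1, and 7.50, 22.8 and 80.9 as the lowest, median and highest value of the 34 other libraries, a ratio of 4.35 over G2. For VIT_14s0066g02110, T1 values of 1212, 1202 and 603 stood against a highest other value of 314 in a C2 library, with a ratio of 3.78 over G2. In VIT_04s0044g00220 the T1 libraries held 2633, 2207 and 2054 and the highest of the others 1024, with a ratio of 3.61. In these 3 genes G2 was the next stage, and no library of another stage reached the T1 libraries. T2 was low as well, where VIT_04s0044g00220 had 272, 51.0 and 607.

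VIT_16s0050g00060 had the most even T1 libraries of the 10, with 476, 469 and 464, and 0 to 153.5 in the 34 other libraries. VIT_10s0042g00600 had 353, 472 and 335 in T1 and at most 183 elsewhere outside T2, and VIT_08s0032g00300 had 932, 1037 and 466 against at most 301. In these genes, too, no library of another stage reached the lowest T1 library, except for T2 replicate 1 of VIT_08s0032g00300, with 473. Altogether, all libraries of the peak stage stood above the 34 libraries of the 10 other stages in 7 of the 10 highest ranked members.

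The peak of the other 3 was uneven between libraries. VIT_19s0015g00080, the member with the highest ratio of 5.05, had 2.73, 324 and 86.3 normalised counts in T2 and at most 43.6 in the 34 other libraries. VIT_11s0016g00670, annotated in the study's tables with the Gene Ontology term for DNA-binding transcription factor activity, had 167, 3482 and 277 in T1, and 117, 73.4 and 866 in C1. VIT_10s0003g03490 had 46.5, 5568 and 1308 in T2, and 1963, 1.07 and 117 in C1. Without T1 replicate 2 the ratio of VIT_11s0016g00670 was 0.632, and without T2 replicate 2 that of VIT_10s0003g03490 was 0.976, so that neither had its highest mean at a torpedo stage then.

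**Figure D2:**
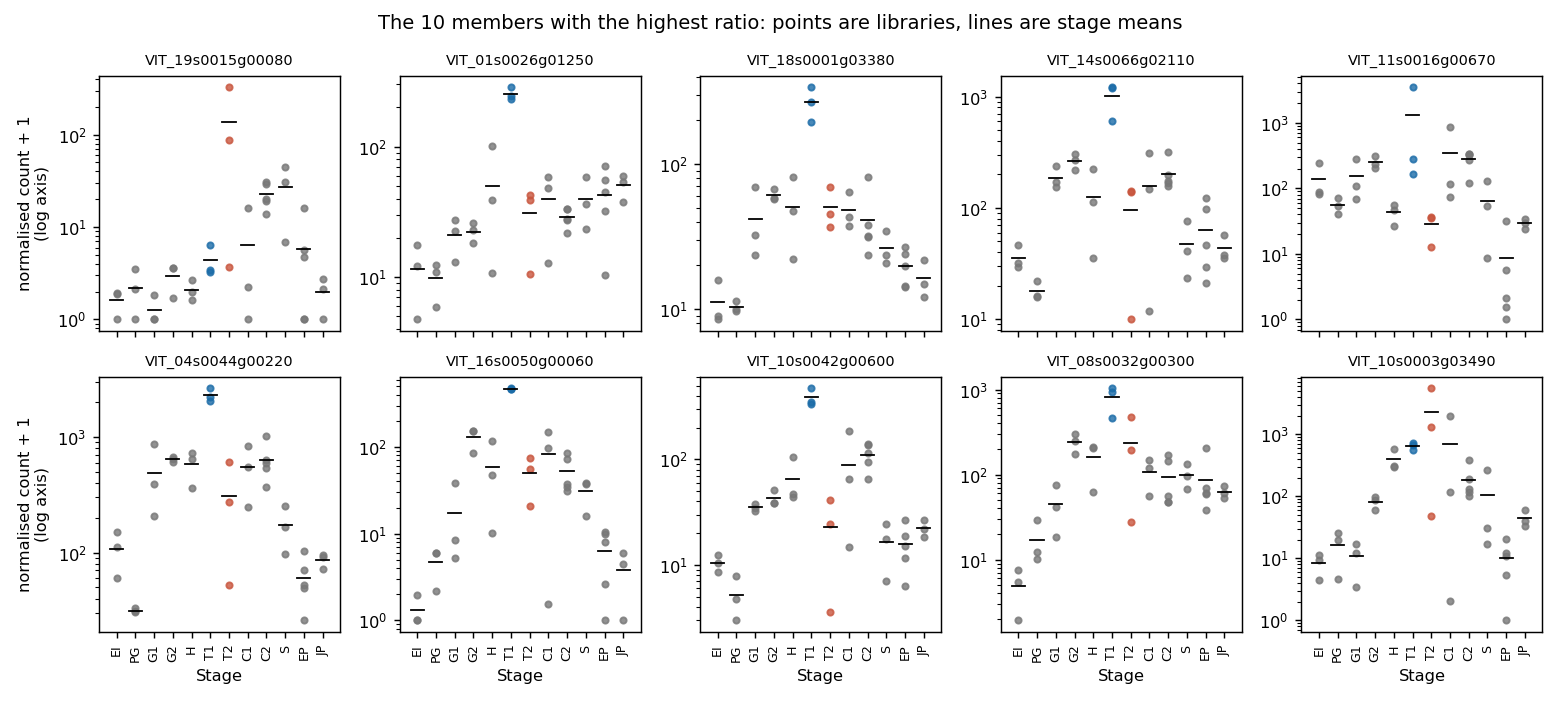
Normalised counts + 1 on a logarithmic axis for the 10 members with the highest ratio, by stage. Points are libraries (T1 blue, T2 red, others grey) and short lines are stage means. VIT_16s0050g00060 has T1 libraries at 476, 469 and 464, whereas VIT_11s0016g00670 has 1 T1 library at 3482 and the others at 167 and 277.

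How evenly the libraries of the peak stage carried the peak differed between the groups. With a T1 peak, the coefficient of variation over the 3 T1 libraries had a median of 27.3%, with quartiles of 14.9% and 43.9%. In the T2 group the median over the T2 libraries was 75.3%, with quartiles of 50.6% and 105%. All 3 libraries of the peak stage exceeded the mean of the next highest stage in 81 of 102 members with a T1 peak and in 12 of 48 with a T2 peak. A single library held over 50% of the summed normalised counts of its stage in 19 and 34 members, respectively.

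Complete separation from the other stages was seen in 59 members with a T1 peak and in 3 with a T2 peak, in the sense that every library of the peak stage exceeded all 34 libraries of the 10 other stages. Over the 19038 genes that reached a stage mean of 100, the share was 0.688% for T1 and 0.0998% for T2. Since the peak chose the members, nothing is read from the counts against these shares. The 3 members of the T2 group, named here after their values were seen, were VIT_16s0022g02290, VIT_03s0063g01470 and VIT_19s0015g01090. Of all 150 members, only VIT_16s0022g02290 had all 6 torpedo libraries above the 34 others. It had 84.3, 83.4 and 67.1 normalised counts in T1, 60.9, 187 and 73.6 in T2, and at most 60.2 in another library, S replicate 3, which came close to the lowest T2 value.

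Leaving out the highest library of the peak stage brought the peak below the next stage for 5 members with a T1 peak and 16 with a T2 peak. The 5 were VIT_11s0016g00670, VIT_11s0016g02000, VIT_16s0050g00400, VIT_02s0025g01390 and VIT_18s0001g13320, listed because they are few. In VIT_16s0050g00400 the T1 libraries held 133, 20.4 and 459, and in VIT_02s0025g01390 387, 1228 and 253. Among the members with a T2 peak, the highest T2 library was replicate 2 in 27, replicate 3 in 16 and replicate 1 in 5. T2 replicate 1 lay below the highest other stage mean in 31 of the 48, replicate 2 in 6 and replicate 3 in 1.

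A library that takes no part in choosing the genes gives a value that the rule has not fixed. The means of the other stages, against which it is read, did take part in the choice. The rule was therefore applied again without each torpedo library in turn, and the chosen genes that peaked in that library's stage were looked up in it, an alternative chosen after the data had been seen. Without T1 replicate 1, 108 genes with a T1 peak were chosen, and 92 of them (85.2%) exceeded in the library left out the highest mean of the 10 other stages. For T1 replicates 2 and 3 this held for 73 of 107 (68.2%) and 80 of 111 (72.1%). The median ratios over the highest other stage mean were 1.68, 1.45 and 1.52. Of all genes that reached a stage mean of 100, 6.16%, 9.59% and 6.95% exceeded that mean in these libraries. In each T1 library left out, most but not all of the chosen genes thus exceeded the other stage means that the rule had used. All genes together were not chosen for low means in the other stages. Nothing is therefore read from the distance to their shares, here or for T2.

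In T2 the outcome depended on the library. T2 replicate 3 stood above the highest other stage mean in 48 of 58 genes chosen without it (82.8%, against 6.80% of all genes), with a median ratio of 1.26, and replicate 2 in 24 of 50 (48.0%, against 10.5%), with a median ratio of 0.893. T2 replicate 1 did so in 10 of 92 genes (10.9%), beside 8.86% of all genes, with a median ratio of 0.281. Most genes chosen from the mean of T2 replicates 2 and 3 thus did not exceed the highest other stage mean in replicate 1. Of the 150 members, 97 were chosen again without T2 replicate 1, and at least 114 without each of the other torpedo libraries.

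**Figure D3:**
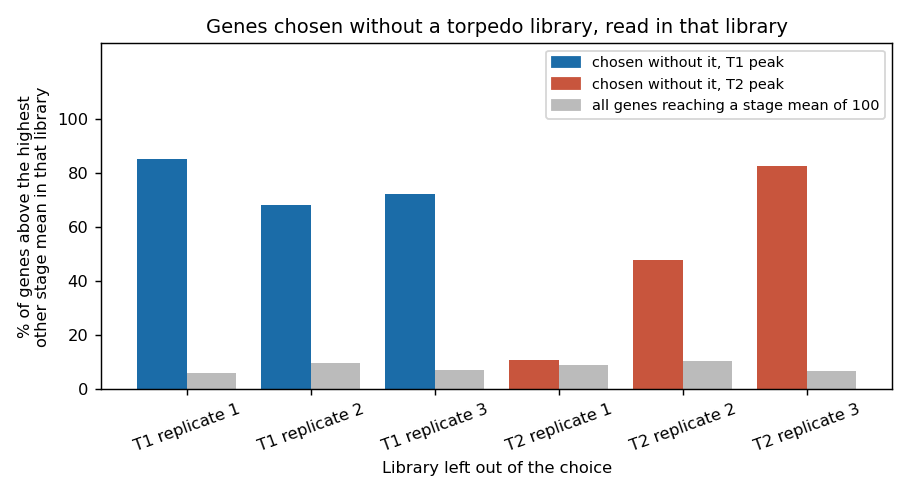
Share of genes, in percent, whose normalised count in a torpedo library exceeded the highest mean of the 10 other stages, for genes chosen by the rule without that library (blue for T1, red for T2) and for all 19038 genes with a stage mean of 100 or more (grey). The T1 bars reach 68.2% to 85.2%, and the bar of T2 replicate 1 reaches 10.9%, near the grey bar of 8.86%.

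The next comparisons are between neighbouring stages, each fitted to all genes of both stages with edgeR's quasi-likelihood test and adjusted over all genes tested. The labels give no culture or plant of origin for the replicates, so that p values measure the spread between these samples. Between T1 and T2, 149 members were tested, and 31 were lower and 0 higher in T2 at an adjusted p below 0.05. At an unadjusted p below 0.05 there were 96, of which 80 had their peak in T1 and 16, all with higher estimates in T2, in T2. The share of all genes at this unadjusted threshold was not counted, so nothing is read from such counts, here or below. Of all 20886 genes tested, 1.78% were lower and 0.278% higher in T2 at the adjusted threshold, 2.06% together. All 31 had their peak in T1, and the direction is the one that the peak stage fixes, so nothing is read from it. Among the 31, the level in T2 had dropped by 1.75 to 4.28 on the log2 scale.

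Of the 31, those with the largest drop and no overlap between the libraries were VIT_16s0098g00220, VIT_10s0042g00910 and VIT_08s0058g00690. VIT_16s0098g00220 had 1858, 2053 and 1388 normalised counts in T1 and 28.7, 99.4 and 147.2 in T2, a log2 fold change of -4.28 ± 0.59 (SE, adjusted p = 0.0234). VIT_08s0058g00690 had 3624, 5048 and 2992 in T1 and 331, 122 and 173 in T2 (log2 fold change -4.24 ± 0.45, adjusted p = 0.0166). Both genes were intermediate in C2, with 722 to 994 and 937 to 1963. Without any one of the T1 replicates, 0 members and 0 genes in all passed the threshold in edgeR (79 to 81 members had an unadjusted p below 0.05). Without T2 replicate 1, 72 members passed it, 22 of them higher in T2, where 13.3% of all genes passed. Without T2 replicate 3 there were 20 members and 0.593% of all genes. DESeq2 called 79 members, 69 lower and 10 higher in T2, and of all genes 4.54% lower and 3.46% higher.

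Before the torpedo stages, all but 2 of the 150 members were tested from G2 to H, and 43 changed, 37 upwards and 6 downwards. Of all 21485 genes tested, 27.6% rose and 28.9% fell, 56.5% together, so that the 25% of members that rose are close to the background, while 4.05% fell. Members are bounded in both stages by the rule, which keeps H and G2 below the peak. The median log2 change over members was 0.09, beside -0.04 over all genes tested. Of the members with a T1 peak 21 rose and 5 fell, and of those with a T2 peak 16 rose and 1 fell. With all 12 stages in 1 model, 7 members passed the threshold, 6 of them upwards, and 22.6% of all genes. Without H replicate 1, 29 members rose and 20 fell, beside 23.2% and 24.9% of all genes.

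The strongest rise from G2 to H was that of VIT_12s0028g03260, from 8.29, 8.77 and 11.2 normalised counts to at least 96.9 in every H library (log2 fold change 3.33 ± 0.19, adjusted p = 2.96e-04). Its T1 libraries were uneven, with 249, 24.5 and 307. VIT_16s0022g02290 rose from 2.76, 2.63 and 8.61 to 31.0, 23.2 and 29.4 (2.52 ± 0.44, adjusted p = 0.00344), and VIT_10s0003g03490 from 58.7, 86.0 and 95.6 to 577, 295 and 306 (2.23 ± 0.33, adjusted p = 0.00188). For the last of these, expression went up at H in every library, stayed at 552, 673 and 717 in T1, and only then split between libraries.

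The strongest falls from G2 to H were in VIT_11s0016g00670, VIT_11s0016g02000 and VIT_11s0016g02010, which share a scaffold of chromosome 11. VIT_11s0016g00670 went from 206, 233 and 317 to 46.5, 25.6 and 54.7 (log2 fold change -2.63 ± 0.32, adjusted p = 0.00100). In VIT_11s0016g02000 the fall was 1.44 on the log2 scale and in VIT_11s0016g02010 1.06. All 3 genes were then highest in T1 replicate 2, with 3482, 355 and 1073, against at most 277, 50.9 and 296 in the other T1 libraries. VIT_11s0016g02000 and VIT_11s0016g02010 lie close together on the scaffold, and the study's tables give VIT_11s0016g02010 terms for transcription factor activity, for response to stress and for response to hypoxia.

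From C1 to C2, 0 of 150 members rose and 2 fell, whereas 9.22% of all 22462 genes tested rose and 13.1% fell, 22.3% together. At an unadjusted p below 0.05 there were 10 members, again without a share of all genes. DESeq2 called 7, 2 higher and 5 lower in C2, with 27.8% of all genes called. VIT_17s0000g02150 fell from 231, 537 and 368 to 83.9, 77.5, 60.2, 202 and 127 (log2 fold change -1.89 ± 0.43, adjusted p = 0.0233), and VIT_18s0001g06110, named as the only other call, from 1086, 601 and 1573 to 448, 492, 454, 648 and 664 (-1.11 ± 0.30, adjusted p = 0.0338). The C1 libraries of the first gene lay above all C2 libraries, and those of the second overlapped with them. The outcome moved with single libraries. Without C1 replicate 1 there were 11 calls, 9 of them upwards, with 37.2% of all genes called. Without C1 replicate 3 or C2 replicates 1 or 2 there were 0. Hardly any gene passed in those fits, 0.0303%, 0.0633% and 0.0630% of all genes. Without C1 replicate 2 or C2 replicate 3 there was 1 (4.72% and 17.4% of all genes), and without C2 replicate 5 there were 3 (17.2%).

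From C2 to S, 68 of 150 members fell and 0 rose, a share of 45.3%. Of all 21593 genes tested, 11.5% fell and 16.1% rose, 27.6% together. The median log2 change over members was -0.94, beside -0.04 over all genes tested, and 133 of the 150 estimates were negative. At an unadjusted p below 0.05 there were 83 members in both directions together, a count without a share of all genes beside it. With a T1 peak, 63 of 102 members fell (median log2 change -1.43), and with a T2 peak 5 of 48 (median -0.27). DESeq2 called 77 members, all of them lower in S, and 12.3% of all genes lower. Leaving out 1 library at a time gave 51 to 70, all lower in S, beside 3.92% to 12.3% of all genes lower. The rule uses no difference between C2 and S, but it bounds both stages by the peak. It left out every gene with its highest mean in S, EP or JP, and likewise those highest in C2. In this order, these were 10.9%, 14.8%, 15.2% and 5.78% of the 19038 genes that reached the minimum stage mean. All genes tested were not limited in this way. Falls and rises among members are therefore partly fixed by the choice. Nothing is read from their distance to the shares of all genes.

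VIT_05s0020g02730 fell furthest, from 258, 247, 210, 126 and 87.2 normalised counts in C2 to 9.95, 13.2 and 4.52 in S (log2 fold change -4.29 ± 0.53, adjusted p = 0.00116). VIT_16s0100g01020 went from 530, 542, 477, 480 and 385 to 45.8, 41.1 and 36.1 (-3.54 ± 0.20, adjusted p = 7.06e-05). The third was VIT_10s0042g00910, from 81.5, 111, 63.1, 68.5 and 58.1 to 11.9, 5.87 and 3.01 (-3.46 ± 0.48, adjusted p = 0.00184). In each of these genes, chosen for no overlap, all 5 C2 libraries lay above all S libraries. The 5 members with a T2 peak that fell, named because they are few, were VIT_14s0030g02060, VIT_14s0030g01990, VIT_00s0357g00120, VIT_17s0000g05840 and VIT_08s0040g02430, with log2 changes of -1.67, -1.58, -2.77, -0.68 and -0.74.

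**Figure D4:**
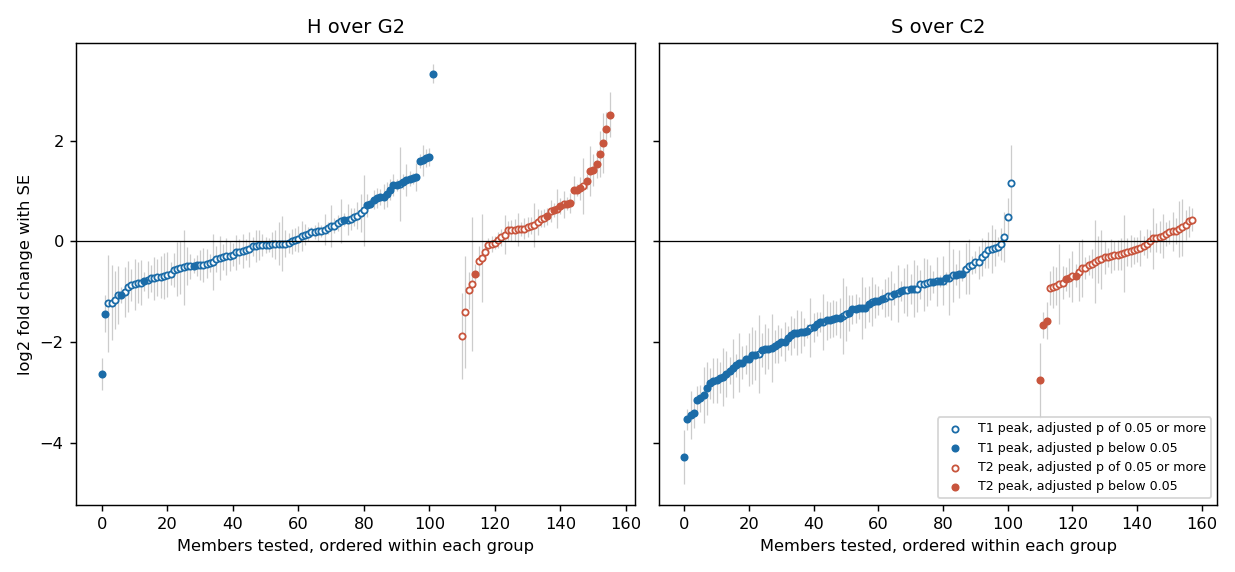
Log2 fold change of each member tested from G2 to H (left) and from C2 to S (right), with bars for the standard error, members ordered within the T1 group (blue) and the T2 group (red). Filled points have an adjusted p below 0.05 in edgeR's quasi-likelihood test. On the right, 63 filled points of the T1 group and 5 of the T2 group lie below 0 and none above.

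Of the 5 members with the highest expression, VIT_19s0015g01090 was high in every stage and the other 4 were low in some. VIT_19s0015g01090, the most abundant, had 53698, 44593 and 53956 normalised counts in T2 and 40228, 36619 and 19498 in T1, and was never below 12021 in any library. Its T2 mean of 50749 ± 5333 (SD, n = 3) was 1.82 times that of C2. VIT_07s0151g00640 had 56843, 10762 and 43824 in T2, 20424, 29156 and 6624 in T1, 22450, 1237 and 9685 in C1, and 8338, 8087, 8234, 27166 and 40905 in C2. In PG it had only 61.9, 13.0 and 27.6. C2 replicates 4 and 5 fell within the range of its T2 libraries.

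VIT_16s0050g01240 and VIT_16s0050g01230, with consecutive identifiers on chromosome 16, had 21840, 17891 and 23033, and 8893, 8983 and 10546, in T1. Both were lower in T2, with 2979, 2595 and 5706, and 964, 1036 and 1389. VIT_06s0004g01180 had 12576, 6186 and 7728 in T1, and 3115, 581 and 10780 in T2, where replicate 3 reached into the T1 range. In PG, VIT_06s0004g01180 had 66.8, 182 and 139, and VIT_16s0050g01240 had 489, 560.3 and 509.

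Members were seldom silent outside their peak. A count was recorded in every library for 115 of the 150. Taking 25% of the peak as a limit, the first stage at or above it was EI for 34 members, PG for 10, G1 for 36, G2 for 26, H for 13, T1 for 23 and T2 for 8, and the last such stage was T1 for 8, T2 for 4, C1 for 9, C2 for 63, S for 34, EP for 14 and JP for 18. With a T1 peak, C2 was the last such stage for 58 of 102 members. The number of stages at or above the limit had a median of 5 with a T1 peak and 7 with a T2 peak.

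No count at all was found in 1 stage for 4 members. VIT_01s0146g00220 had none in EI, 955, 781 and 955 normalised counts in T1, and was at least 979-fold higher in T1, taking 3 counts over the EI libraries as the upper limit that a count of 0 allows. VIT_18s0001g13320 had none in PG and 173, 427 and 24.96 in T1, at least 186-fold higher by the same limit and at least 88.2-fold without T1 replicate 2. VIT_07s0005g06090 had none in PG and 186, 110 and 1125 in T2, at least 423-fold higher, or 132-fold without T2 replicate 3. VIT_04s0044g01650 had none in JP, with 175, 812 and 1610 in T2, at least 649-fold higher, or 370.1-fold without T2 replicate 3. The limits of these 3 genes thus moved with 1 library. These limits cover counting error only.

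The identifiers give chromosome and order of the genes along a scaffold. Chromosome 16 held 16 members (10.7%, beside 3.79% of the genes that reached a stage mean of 100), chromosomes 4 and 17 held 10 each, and chromosome 19 held 2. On 1 scaffold and at most 5 listed genes apart from the next member were 36 members (24.0%) in 15 runs. The top 150 genes peaking in H, in C1 and in C2 were taken as a comparison after the data had been seen. They were ranked by the mean of that stage over the highest of all other stages, with the same minimum. The rule for the members differs, as it leaves both T1 and T2 out of the other stages. In such runs lay 28.7%, 18.7% and 22.0% of these genes, values on either side of that of the members. Among the denser set of all genes that reached a stage mean of 100, 98.5% lay in runs.

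Of the runs, 6 had 3 members, and their profiles outside the peak were compared as a description. VIT_10s0042g00890, VIT_10s0042g00910 and VIT_10s0042g00920 on chromosome 10 stood at 28.6%, 16.5% and 25.6% of their peaks in G2, at 7.05%, 5.54% and 6.90% in T2, at 53.9%, 54.3% and 57.9% in C2, and at 5.03%, 4.93% and 6.58% in S. In the T2 libraries they had 65.6, 15.9 and 435, 5.47, 1.27 and 16.7, and 84.8, 14.7 and 531 normalised counts, so that replicate 3 was highest and replicate 2 lowest in each. Their peak means differed widely, with 2441 ± 434, 141 ± 20.8 and 3044 ± 414 normalised counts (SD, n = 3). All 3 fell from C2 to S, with log2 changes of -3.41, -3.46 and -3.12, and all 3 were lowest in C1 replicate 2 among the C1 libraries.

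VIT_16s0050g01190, VIT_16s0050g01230 and VIT_16s0050g01240 on chromosome 16 also had C2 means at 54.2%, 57.8% and 55.7%, with 11.9% to 23.5% in T2 and 42.7%, 32.0% and 40.9% in G2. VIT_16s0050g01190 had 939, 577 and 987 in the T2 libraries, all below its lowest C2 library with 1252, and the T2 values of its neighbours are given above. VIT_00s0199g00080, VIT_00s0199g00090 and VIT_00s0199g00100, on an unplaced scaffold, were at 57.5%, 59.7% and 52.4% in T2, at 44.8%, 40.8% and 35.7% in C2, and at 4.58%, 4.20% and 4.50% in JP. Their T2 values were 933, 561 and 594, 139, 67.55 and 73.6, and 135, 92.4 and 78.5, highest in replicate 1 each time.

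On chromosome 15, VIT_15s0048g02300, VIT_15s0048g02310 and VIT_15s0048g02320 were at 19.6%, 9.25% and 12.2% in T2 and stood at 57.3%, 33.0% and 33.4% in C2. T2 replicate 2 was the lowest T2 library in all 3, with 56.7, 8.28 and 60.5, against 641 and 655, 22.6 and 24.5, and 120.3 and 103 in replicates 1 and 3. The remaining runs were mixed. In the run on chromosome 14, VIT_14s0066g02100 had 57.5% of its peak in EP, where VIT_14s0066g02060 and VIT_14s0066g02110 had 3.31% and 6.17%. On chromosome 17, VIT_17s0000g02870 peaked in T2, with 23.2, 146.6 and 216 in its libraries, and was at 21.5% in T1, whereas its neighbours VIT_17s0000g02920 and VIT_17s0000g02930 peaked in T1. The sources used here do not say how reads matching several genes were counted, so that neighbours with near-identical sequences, if there are any, could share reads.

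**Figure D5:**
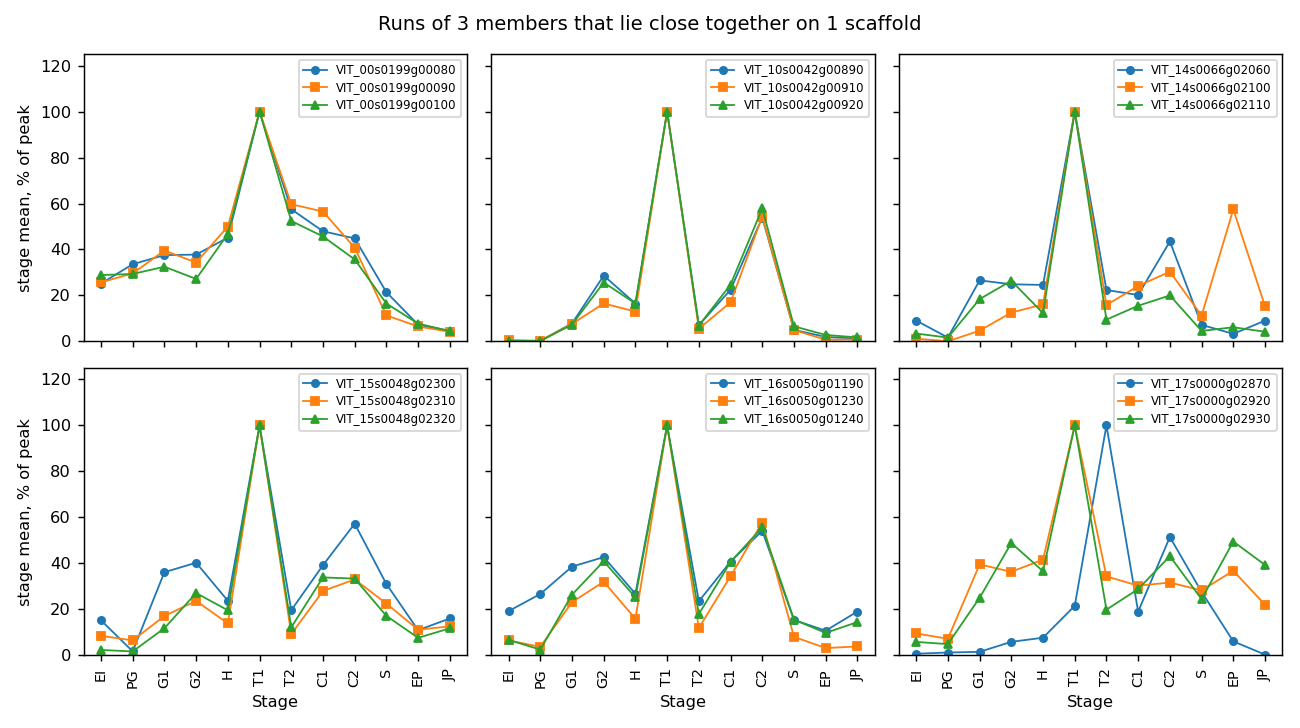
Stage means as a percentage of each member's peak for the 6 runs of 3 members that lie at most 5 listed genes apart on 1 scaffold. In the run of chromosome 10, all 3 genes lie between 5.54% and 7.05% in T2 and between 53.9% and 57.9% in C2, though each T2 mean averages over unlike libraries.

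Gene Ontology terms were at hand for 9 members, from a partial table of the study, so that nothing is read from how often a term occurs. VIT_16s0013g00220, with terms for cysteine-type endopeptidase activity and for positive regulation of cell death, had 1344, 2078 and 1788 normalised counts in T1 and 588, 819 and 691 in T2. VIT_00s0353g00050, with terms for protein kinase activity and calmodulin binding, had 263, 301 and 349 in T1 and 43.8, 28.0 and 56.9 in T2. VIT_16s0050g01230, described above among the most abundant, carries terms for metal ion transport and cation homeostasis.

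VIT_06s0004g02880, with terms for a receptor serine/threonine kinase at the plasma membrane, peaked in T2 with 526, 459 and 371, and had 509, 41.3 and 188 in C1. VIT_17s0000g01660, with terms for chromatin and DNA replication, had 93.0, 197 and 280 in T2, 160, 150 and 129 in T1, and 210, 19.3 and 50.1 in C1. In both genes, C1 replicate 1 reached the T2 range and C1 replicate 2 was the lowest of its stage. VIT_10s0042g00890 and VIT_10s0042g00910 had terms for a location in the cytoplasm alone. A phylostratum, the age class in which the study places a gene's founder, was at hand for 22 members. VIT_01s0026g01250, the highest ranked member with a T1 peak, was placed with the land plants and VIT_10s0003g03490 with all cellular organisms.

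At the limit of the set, the last 3 members were VIT_10s0042g00920, VIT_06s0004g00020 and VIT_08s0040g02430, with ratios of 1.726, 1.723 and 1.722. The next 3 genes, just outside, were VIT_18s0001g06240, VIT_04s0008g02860 and VIT_16s0100g00880, with 1.720, 1.718 and 1.717. VIT_04s0008g02860, with a T1 mean of 20380 normalised counts, and VIT_16s0100g00880, on the same scaffold as the member VIT_16s0100g01020, thus stood just below the last members.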

How the data were processed

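The authors depleted rRNA, sequenced paired-end reads, aligned them to the 12X assembly with BBMap, and deposited raw whole-number counts of reads per gene. The sources used here do not give strand use. Stage and replicate come from the labels, and columns headed PG1 were taken as PG. Members and lists were chosen with earlier results of these data known. Genes named are the 10 with the highest ratio, the 5 with the highest peak mean, up to 3 per comparison and direction with the largest change and no overlap, annotated members, members of the longest runs (6 tied, all named), and the 3 genes on each side of the limit of the set. Others are marked as named afterwards. Pairs of stages were fitted alone with edgeR 4.0.16 (TMM, filterByExpr, glmQLFTest, Benjamini-Hochberg adjustment over all genes, threshold 0.05) in R 4.3.3, with SE taken as the estimate over the root of F. Alternatives used DESeq2 1.42.0, limma 3.58.1 (through edgeR), other factors, filters and libraries. Descriptions used Python 3.11.15, numpy 2.4.6, pandas 2.3.3 and matplotlib 3.10.9. On simulated counts (200 genes changed 4-fold, dispersion 0.1) the test recovered 92.5% for T1 against T2 (21172 genes) and 96.5% for C2 against S (22452 genes). It recovered 91.5% for G2 against H and 99% for C1 against C2, with 1.60% to 6.31% false among the calls. The simulation used 1 dispersion for all genes, not fitted to these libraries. It therefore does not measure the power of the test in stages as uneven as T2 or C1. Identifiers of the table matched 0 genes of the RefSeq list, so that no names, lengths, coordinates or sequences were used.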

Additional observations from a re-analysis of the deposited data

Results flagged for a closer look

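Of 54 groups of 5 libraries examined (C2 and EP, for members named by rule), 9 had 1 library far from the others by Dixon's ratio, with a critical value of 0.71, which chance alone passes in about 1 of 20 groups. In C2, VIT_18s0001g03380 was high in replicate 3 (80.7 normalised counts, against 22.6 to 37.3, ratio 0.747) and VIT_14s0066g02110 in replicate 4 (314, against 157 to 195, ratio 0.757). VIT_06s0004g01180 was low in C2 replicate 3 (2138, against 3623 to 4080, ratio 0.765) and VIT_08s0058g00690 in C2 replicate 5 (937, against 1754 to 1963, ratio 0.797). In EP, VIT_08s0032g00300 was high in replicate 3 (202, against 36.9 to 69.0, ratio 0.806), and so was VIT_07s0151g00640 (13254, against 95.6 to 3118, ratio 0.770). Levels were low in the remaining 3 cases, all in EP, where replicate 2 was highest for VIT_11s0016g00670 (31.3, ratio 0.849), VIT_10s0042g00910 (4.47, ratio 0.881) and VIT_05s0020g02730 (13.4, ratio 0.725).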

How the results depend on the processing

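Of the 150 members, the number chosen again was 97 to 150 with 1 library left out at a time (97 without T2 replicate 1), 102 with stage medians, 132 with TMM factors and 144 with a pseudocount of 10. With a limit of 10% of the peak, 6 members had T1 or T2 as their first stage, 80 had EI, and 31 had C2 or an earlier stage as their last. At 50% these counts were 120, 0 and 138, against 31, 34 and 84 at the 25% used above. Between T1 and T2, 31 calls became 79 with DESeq2, 81 with a model of all 12 stages, and 0 to 72 when each library was left out. Higher in T2 were 10 of the 79 and 8 of the 81, against 0 of the 31. Of all genes, 2.06% were called in the main fit, 11.6% with the model of all 12 stages, and at most 13.3% when each library was left out. DESeq2 called 4.54% of all genes lower and 3.46% higher in T2. From G2 to H the model of all 12 stages left 7 of 43 calls, with 22.6% of all genes called in place of 56.5%. From C1 to C2, 2 calls became 7 with DESeq2 and 0 to 11 when each library was left out. Of all genes, 22.3%, 27.8% and 0.0303% to 37.2% were called in these fits. The cause of these shifts was not tested. From C2 to S every alternative gave 51 to 77 calls, beside 11.9% to 30.4% of all genes. The calls were not all lower in S. With the replicate number as a block, 1 of 65 called members was higher in S. The same libraries without the block, a setting chosen after seeing the data, gave 72 calls, 6 of them higher in S. In the remaining alternatives all calls were lower in S. The peak ratio of VIT_11s0016g00670 was 0.863 with stage medians and 0.632 to 5.33 when each library was left out, and that of VIT_10s0003g03490 was 0.976 to 5.87. Peak ratios of the other 8 of the 10 highest ranked members and of the 5 most abundant stayed above 1, whereas the 5 members with a T1 peak listed in the report fell below 1 without their highest library.

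Replicate numbers recur across stages. Deviations of same-numbered samples from their stage means had correlations of -0.201 to 0.229 over 12 pairs, 5 of them above 0.1. These mixed values cannot decide whether the number is a pairing, and the labels give no origin. The main fits used no pairing. With the number as a replicate block, 11 members were called between T1 and T2, with 0.651% of all genes. From C1 to C2, 0 members were called, and also 0 of all 22202 genes tested. The same libraries without the block gave 6 members and 21.9% of all genes, a setting chosen after seeing the data. Counts from G2 to H (46, with 52.4% of all genes) and from C2 to S (65, with 22.4%) moved by less than 1.5 times. The precision of T1, T2 and C1 means rests on 3 libraries each.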
